A study of Mus musculus with 2 samples.

Results

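The genes described here are the 7 milk protein genes Csn1s1, Csn1s2a, Csn2, Csn3, Wap, Lalba and Glycam1. They were taken by symbol from the 32285 genes of the deposited tables, and all 7 were found. Their counts were read in tumor cells and in the other cell classes of 1 Dll1+ and 1 Dll1- mouse mammary tumor. Both tumors were untreated controls, and live cells without CD45, a surface protein of leukocytes, were sorted from each before 10x Single Cell v3 library preparation. The stain also held antibodies to CD31 and Ter119, found on endothelial and erythroid cells. The Dll1 protein sits in the membrane and activates Notch receptors on neighbouring cells. The sources used here do not give the mouse strain, the tumor model or the basis on which tumors were assigned to Dll1+ and Dll1-. There was 1 library per group and therefore no test between the tumors. Ranges in brackets are 95% intervals for counting error alone, and a difference between the libraries cannot be told apart from a difference between any 2 tumors.

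Caseins are the phosphoproteins that bind calcium and assemble into the micelles of milk. The kappa-casein made from Csn3 coats the micelle surface and keeps it in solution, and the calcium-sensitive caseins made from Csn1s1, Csn1s2a and Csn2 fill its core. Wap encodes whey acidic protein of rodent milk, and Lalba encodes alpha-lactalbumin, the regulatory subunit of lactose synthase. Glycam1 encodes a mucin-like glycoprotein that is secreted into milk and is also made by the high endothelial venules of lymph nodes. In the mammary gland these genes are switched on in alveolar luminal cells during pregnancy, under prolactin, which acts through the kinase Jak2 and the transcription factor Stat5, together with glucocorticoids and the transcription factor Elf5.

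The 4 casein genes lie on chromosome 5 within 266 kb (mm10, GENCODE M21): Csn1s1 (ENSMUSG00000070702) at chr5:87666208-87682578 on the plus strand, Csn2 (ENSMUSG00000063157) at chr5:87692624-87699630 on the minus strand, Csn1s2a (ENSMUSG00000061937) at chr5:87774567-87788797 and Csn3 (ENSMUSG00000001622) at chr5:87925579-87932665, both on the plus strand. The other members lie elsewhere, all on the minus strand: Wap (ENSMUSG00000000381) at chr11:6635482-6638637, Lalba (ENSMUSG00000022991) at chr15:98480400-98482721 and Glycam1 (ENSMUSG00000022491) at chr15:103562759-103565081. All 7 are annotated as protein-coding.

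Since Stat5 is the known link from prolactin to these genes, their promoters were searched for its palindromic binding sequence TTCNNNGAA, which reads the same on both strands. RefSeq promoters (build GRCm38.p6, the assembly of mm10) cover 250 bases before to 50 bases after the start, and 6 of the 7 genes were in the table. Of these 6, 4 held the sequence (Csn1s1, Csn1s2a, Csn2 and Glycam1), and Wap and Lalba held none in this window. Of all 32851 promoters of the same length 8.30% held it. A match describes the letters and is not evidence of binding. The sequences below are shown so that the match can be seen beside a promoter without one, that of Wap. Each runs from 5′ to 3′ on the gene's own strand, with the match in capitals. For Csn1s1 (chr5:87665958-87666207, match starting 100 bases before the start), Glycam1 (chr15:103565082-103565331, match 145 bases before the start) and Wap (chr11:6638650-6638899) the 250 bases before the start are given. For Csn2 (chr5:87699500-87699528, match 93 bases before the start) and Csn1s2a (chr5:87774460-87774488, match 21 bases after the start) only the match and its flanks are given. All positions count from the RefSeq start, which for Csn2 and Csn1s2a differs from the GENCODE bounds above. By those bounds the Csn2 match lies within the gene and the Csn1s2a match before its start.
Csn1s1: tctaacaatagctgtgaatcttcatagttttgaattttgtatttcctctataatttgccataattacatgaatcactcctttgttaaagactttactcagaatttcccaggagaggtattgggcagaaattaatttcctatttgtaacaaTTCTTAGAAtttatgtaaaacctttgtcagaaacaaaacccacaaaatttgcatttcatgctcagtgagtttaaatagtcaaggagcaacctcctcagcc
Glycam1: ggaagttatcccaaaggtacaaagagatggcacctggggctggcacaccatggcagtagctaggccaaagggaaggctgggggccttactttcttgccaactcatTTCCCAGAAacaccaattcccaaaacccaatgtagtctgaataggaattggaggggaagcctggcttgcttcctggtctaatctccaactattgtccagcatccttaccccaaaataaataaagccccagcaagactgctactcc
Wap: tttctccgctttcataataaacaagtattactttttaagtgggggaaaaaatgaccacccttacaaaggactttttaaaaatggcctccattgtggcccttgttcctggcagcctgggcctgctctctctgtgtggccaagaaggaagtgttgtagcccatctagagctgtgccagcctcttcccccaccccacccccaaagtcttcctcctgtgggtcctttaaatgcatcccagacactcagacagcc
Csn2: tcacgtagacTTCTTGGAAttgaagggac
Csn1s2a: ttatagtgctTTCTTAGAAttacaatgac

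Tumor cells here are the epithelial-like cells, 8041 (83.0%) of the 9685 Dll1+ and 8674 (85.6%) of the 10132 Dll1- cells kept. All 10 epithelial markers of a list that includes Epcam, Krt8 and Krt18 were detected in at least 20% of them in both libraries. Their median depth was 8016 UMIs (unique molecular identifiers, each marking 1 captured molecule) in the Dll1+ and 10681 in the Dll1- library. The summed level of the other markers differed too: fibroblast markers stood at 79.7 and 23.9 CPM (UMIs per 1000000 UMIs of the group), basal markers at 419 and 313 CPM and neutrophil markers at 184 and 576 CPM. Lymphocyte and erythroid markers were each under 1 CPM in sum. The fibroblast list has 9 genes and the neutrophil list 6, of which 1 gave 170 and 571 CPM. The part of these differences in the values below was not tested. The libraries shared 109 barcodes, of which 59 and 61 were among the kept cells.

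All 7 milk protein genes were lower in the tumor cells of the Dll1+ than of the Dll1- library. CPM are counted molecules and are not scaled by transcript length, so levels are compared between cells and not between genes. Among the caseins, Csn2 was at 0.98 CPM (0.78 to 1.22; 80 UMIs) against 203 CPM (201 to 206; 21413 UMIs), a level 207-fold (166 to 261) higher in the Dll1- cells. Csn1s2a was at 0.98 CPM (0.78 to 1.22) against 16.3 CPM (15.5 to 17.1), 16.6-fold (13.2 to 21.01) higher in the Dll1- cells. Csn1s1 was at 65.6 CPM (63.9 to 67.4) against 693 CPM (688 to 698), a 10.6-fold (10.3 to 10.9) difference. The calcium-sensitive caseins thus showed ratios of 10 or more, with intervals far apart. Csn3 was at 3670.4 CPM (3657 to 3684) against 10236 CPM (10217 to 10255), 2.79-fold (2.78 to 2.80) higher in the Dll1- cells.

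The whey protein genes differed less than those 3 caseins. Lalba was at 362 CPM (358 to 366) against 977 CPM (971 to 983), a 2.70-fold (2.66 to 2.73) difference. Wap was at 31.9 CPM (30.7 to 33.2) against 134 CPM (131 to 136), 4.19-fold (4.02 to 4.37). Glycam1 was at 6.41 CPM (5.87 to 6.99) against 36.2 CPM (35.1 to 37.4), 5.65-fold (5.16 to 6.20). Within the Dll1+ cells 138 of the 522 Glycam1 UMIs came from 1 cell, and without it the level was 4.72 CPM (4.26 to 5.21).

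On the log2 scale of CPM plus 1, Dll1+ over Dll1-, the 7 ratios ran from -6.69 (Csn2) to -1.43 (Lalba), with a median of -2.33. The 7 genes were all lower by 2-fold or more. Of 15234 genes with at least 30 UMIs over both libraries 2.49% were, and 8.98% were at least 2-fold higher, with a median of 0.20. These were 379 and 1368 genes, and 569 and 956 with trimmed mean of M values (TMM) factors, which shift the Dll1+ CPM by -0.26 on the log2 scale before 1 is added. Without a sub-state of 1847 Dll1+ cells led by genes that include Pdpn, a fibroblast marker, Csn3 (-0.92) and Lalba (-0.90) were less than 2-fold lower, so that 5 of the 7 remained. Together the members made up 0.41% of all UMIs of the Dll1+ and 1.23% of the Dll1- tumor cells. The mix of counted molecules also differed. Csn3 gave 88.7% of the member UMIs in the Dll1+ and 83.3% in the Dll1- cells, Csn1s1 1.59% and 5.64%, Csn2 0.02% and 1.65%, and Lalba 8.75% and 7.95%.

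The stromal classes (fibroblast-, endothelial- and pericyte-like cells, 929 and 1043 in all) are cells not known to make milk. The part of free RNA in their counts was not tested. In the Dll1- library the stromal level was 417 CPM (401 to 433) for Csn3, 41.1 CPM (36.4 to 46.3) for Lalba, 16.7 CPM (13.8 to 20.1) for Csn1s1, 4.37 CPM (2.92 to 6.27) for Csn2 and 2.26 CPM (1.26 to 3.73) for Wap. In the Dll1+ library these were 160.4 (151 to 170.01), 16.6 (13.7 to 19.9), 2.11 (1.18 to 3.48), 0 and 0.28 CPM (0.03 to 1.02). The tumor cells were higher than the stroma of their own library by a ratio of 22.9 and 24.6 for Csn3 and 21.8 and 23.8 for Lalba. For the most counted members the stromal mix was close to the tumor mix of the same library: Csn3 gave 88.0% (86.1 to 89.8) and 86.5% (85.2 to 87.6) of the member UMIs in stromal cells, and Lalba 9.10% (7.59 to 10.8) and 8.53% (7.59 to 9.55). In Dll1- stroma Csn1s1 (3.47%, 2.86 to 4.16) and Csn2 (0.91%, 0.61 to 1.30) had smaller shares than in tumor cells (5.64% and 1.65%). In Dll1+ stroma the interval of Csn1s1 (1.16%, 0.65 to 1.90) held the tumor share of 1.59%. Csn2 had 0 UMIs there, which allows up to 0.28%, against 0.02% in tumor cells. Wap had a smaller share in Dll1+ stroma (0.15%, 0.02 to 0.56) than in tumor cells (0.77%), and Glycam1 a larger one (1.54%, 0.95 to 2.37, against 0.15%). Stromal values are read here as background, with less ground for Glycam1, where 19 of the 20 Dll1+ stromal UMIs came from endothelial-like cells. Csn2 and Csn1s2a had 0 UMIs in Dll1+ stroma, which allows up to 0.52 CPM, below the 0.98 CPM of the Dll1+ tumor cells.

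The cluster led by the keratin gene Krt5 held 331 and 321 cells. It was kept whole here although 6 of its sub-clusters had basal and 1 had keratinocyte markers. For Csn3, Csn1s1, Lalba and Wap its cells stood between stroma and tumor cells. Their Csn3 level was 725 CPM (699.9 to 751) in Dll1+ and 891 CPM (859 to 925) in Dll1- cells. Csn1s1 was at 29.4 CPM (24.5 to 34.9) and 54.3 CPM (46.5 to 63.1) in these cells. In the Dll1+ library Csn2 and Csn1s2a had 0 UMIs both in these cells and in stroma, which gives no order between them. In the Dll1- library Csn1s2a had 1 UMI in each. The Csn2 intervals overlapped there (4.60 to 10.9 CPM in these cells against 2.92 to 6.27 CPM in stroma). Macrophage-like cells, only 28 and 11, held Csn3 at 884 CPM (765 to 1016) and 1711 CPM (1473 to 1976), above the Krt5-led cells. Glycam1 had another order of classes: in the Dll1+ library endothelial-like cells held 13.1 CPM (7.88 to 20.4), above the 6.41 CPM of the tumor cells. Those 19 UMIs came from 4 of 261 cells, 11 of them from 1 cell. The endothelial-like cells of the Dll1- library held 2 Glycam1 UMIs in 281 cells (1.503 CPM, 0.18 to 5.43).

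**Figure D1:**
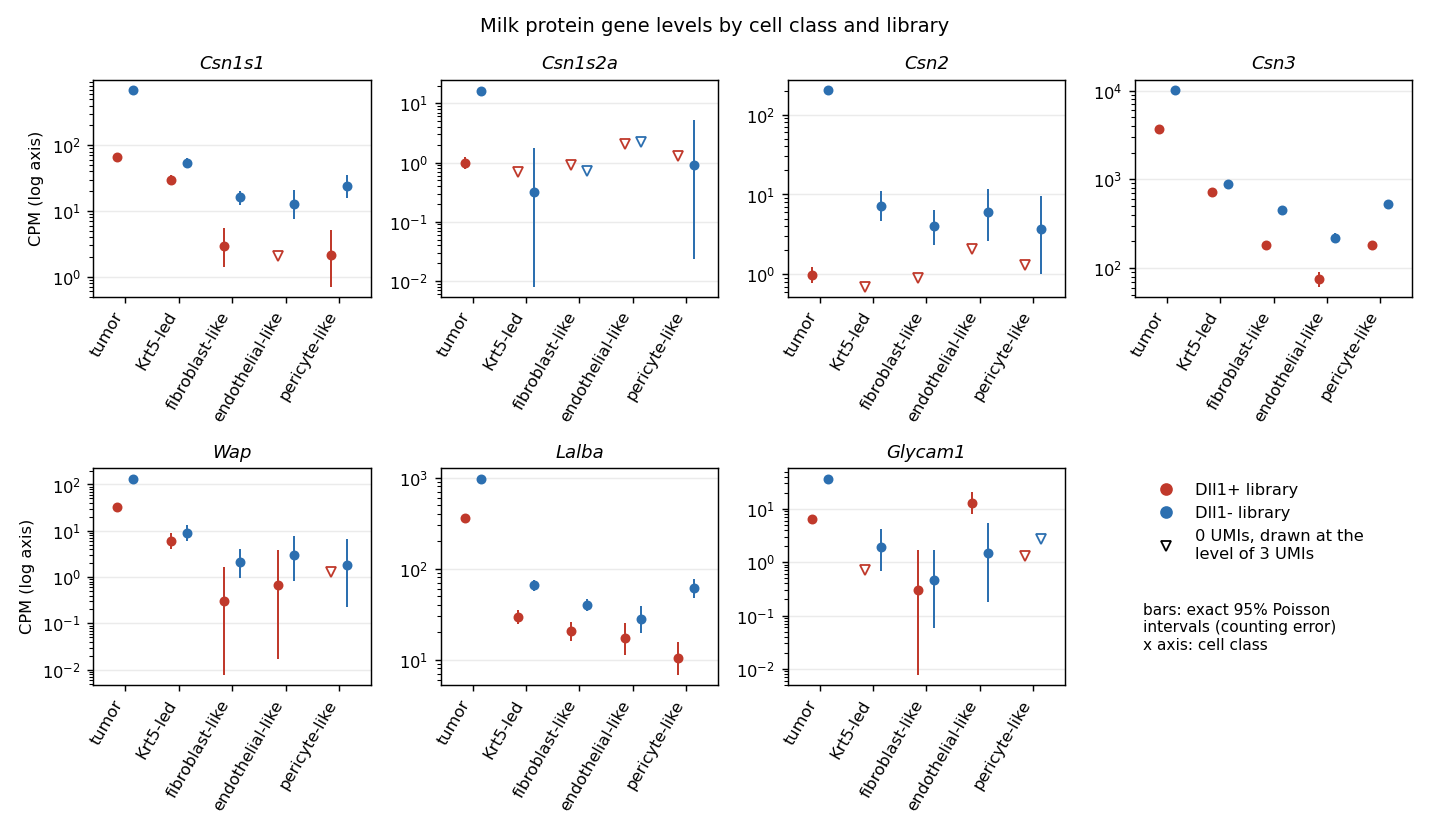
CPM of each milk protein gene (log axis) in tumor, Krt5-led and stromal classes of the Dll1+ and Dll1- library, with exact 95% Poisson intervals and open triangles for 0 UMIs. By counted level, tumor cells are highest for every gene except Glycam1 in the Dll1+ library, where endothelial-like cells reach 13.1 CPM, and the Dll1- tumor cells lie above the Dll1+ tumor cells in all 7 panels. For Csn2 and Csn1s2a the Dll1+ triangles of endothelial-like (2.07 CPM) and pericyte-like cells (1.30 CPM) lie above the tumor point (0.98 CPM). Triangles are drawn at the level of 3 UMIs, so the order of these classes is not shown there.

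Shares of tumor cells with a UMI followed the levels. As measured, 70.2% (69.2 to 71.2) of Dll1+ and 96.5% (96.1 to 96.9) of Dll1- tumor cells had a Csn3 UMI. A Csn2 UMI was found in 0.34% (0.22 to 0.49) and 10.2% (9.58 to 10.9). In comparison, the fibroblast-like cells (medians of 9402 and 6704 UMIs) gave 40.3% (35.2 to 45.7) and 63.5% (59.5 to 67.4) for Csn3 and 0 of 352, which allows up to 1.04%, and 2.90% (1.70 to 4.60) for Csn2. To set both libraries at 1 depth, each cell was thinned to 2000 UMIs, which left out 590 and 188 shallower tumor cells. Csn3 was then found in 49.2% (48.1 to 50.4) and 89.4% (88.7 to 90.02) of the tumor cells, against 13.6% (11.4 to 16.1) and 30.4% (27.5 to 33.4) of the stromal cells. Csn1s1 was found in 3.87% (3.44 to 4.33) and 32.8% (31.8 to 33.8), against 0.46% (0.13 to 1.18) and 3.46% (2.39 to 4.82) of the stromal cells. For Lalba the tumor shares were 15.2% (14.4 to 16.1) and 40.5% (39.4 to 41.5), and for Wap 3.21% (2.82 to 3.63) and 13.2% (12.5 to 13.9). The rarest members were Csn2 at 0.11% (0.05 to 0.21) and 4.89% (4.44 to 5.37), Glycam1 at 0.46% (0.32 to 0.64) and 2.32% (2.01 to 2.66) and Csn1s2a at 0.19% (0.10 to 0.32) and 1.56% (1.30 to 1.84).

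The tumor cells were clustered with the 7 genes left out of the variable genes, which gave 6 sub-states. Sub-state S0, whose leading genes over both libraries include Lalba, Wap, Csn1s1, Lrg1, Thrsp and Xbp1, held 1262 (15.7%) of the Dll1+ and 5007 (57.7%) of the Dll1- tumor cells. S2, led by Fermt1, Lgals3 and Krt7, held 217 and 3032 cells, and the mitotic S4, led by Ube2c and Nusap1, 120 and 545. S1, led by Prpmp5, Cd74 and Kcne3, held 4585 (57.0%) of the Dll1+ and 5 of the Dll1- cells. S3, led by Ptn, Rbp7 and Pdpn, held 1847 (23.0%) and 0. S6, led by Spink12, Sprr1a and Krt6a, held 10 and 85. The Dll1+ tumor cells thus lay mostly in 2 sub-states that were all but missing from the Dll1- library, and which of them reflect a cell state and which a library cannot be told apart.

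S1 and S3 had low levels of the members other than Glycam1, which was at 2.98 CPM (2.42 to 3.64) and 6.10 CPM (5.22 to 7.09). Csn3 was at 688 CPM (679 to 697) in S1 and 358 CPM (351 to 365) in S3, Lalba at 50.8 CPM (48.3 to 53.3) and 52.6 CPM (49.9 to 55.4), and Csn1s1 at 10.3 CPM (9.20 to 11.4) and 13.4 CPM (12.0 to 14.8). These levels of Csn3, Lalba and Csn1s1 lay above those of Dll1+ stroma and more than 10-fold below those of Dll1+ cells in S0. Dll1+ barcodes under the UMI minimum for cells held Csn3 at 706 CPM and Lalba at 109.98 CPM. The levels of S1 and S3 exceeded neither value. Csn1s1 went the other way, at 6.47 CPM (7 UMIs) in those barcodes. The part of free RNA in the counts of S1 and S3 was not tested. S0 held 77.6% of the Csn3, 81.6% of the Lalba and 73.1% of the Csn1s1 UMIs of the Dll1+ tumor cells, and 73.7%, 86.5% and 74.2% of those of the Dll1- tumor cells. Glycam1 was spread otherwise in the Dll1+ cells, with 18.2% of its UMIs in S0, 32.6% in S3 and 30.5% in S4, against 82.1% in S0 in the Dll1- cells. Of the 159 Glycam1 UMIs of Dll1+ cells in S4, 138 came from 1 cell, and without it the shares were 24.7% in S0, 44.3% in S3 and 5.47% in S4. Csn2 also had a smaller share in S0 in the Dll1+ cells, though over only 80 UMIs. It had 41.25% in S0, 27.5% in S1, 15% in S3 and 13.75% in S4, against 75.8% in S0 in the Dll1- cells.

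Within S0 the members split. Csn3 was at 14342 CPM (14283 to 14400.1) against 12486 CPM (12459 to 12514), 1.15-fold (1.14 to 1.15) higher in the Dll1+ cells. Lalba was near level, at 1487 CPM (1468 to 1506) and 1399 CPM (1390 to 1408). Wap was at 111 CPM (106 to 117) and 189 CPM (185 to 192). The other 4 members were still lower by 2-fold or more, as were 1.19% of 13291 genes tested in S0, of which 2.39% were higher. Csn2 was at 2.04 CPM (1.41 to 2.87; 33 UMIs) against 255 CPM (251 to 259; 16225 UMIs), 124.8-fold (88.9 to 181) higher in the Dll1- cells. Csn1s1 was at 241 CPM (234 to 249.1) against 851 CPM (844 to 858), 3.53-fold (3.41 to 3.64). Csn1s2a was at 4.45 CPM (3.48 to 5.61) against 21.8 CPM (20.7 to 23.0), 4.90-fold (3.86 to 6.30), and Glycam1 at 5.88 CPM (4.75 to 7.18) against 49.2 CPM (47.5 to 50.9), 8.37-fold (6.83 to 10.4). The count of 4 was the same when the members were kept in the clustering and at a finer resolution. At the finer resolution the sub-state with the most Dll1- cells held 195 and 3078 cells. There Csn3 was level (log2 ratio of -0.003) and Lalba was lower in the Dll1+ cells (-0.48). Lalba was thus near level at the coarser resolution only. After thinning, Csn3 was found in 97.6% (96.6 to 98.4) of Dll1+ and 94.8% (94.1 to 95.4) of Dll1- cells in S0. For Csn1s1 the shares were 15.2% (13.2 to 17.3) and 38.6% (37.2 to 39.96), and for Csn2 0.33% (0.09 to 0.83) and 6.22% (5.57 to 6.94).

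The mitotic sub-state S4 repeated the split. Csn3 was at 11039 CPM (10914 to 11166) and 10691 CPM (10633 to 10750), Lalba at 827 CPM (793 to 862) and 812 CPM (796 to 828) and Wap at 124 CPM (111 to 138) and 103 CPM (96.98 to 109). Csn2 (4.11 against 211 CPM), Csn1s2a (1.12 against 14.7 CPM) and Csn1s1 (175 against 691 CPM) were lower by 2-fold or more, as were 2.27% of the genes tested there, with 1.78% higher. Single cells weighed on the small Dll1+ group of S4. Of its 469 Csn1s1 UMIs 217 came from 1 cell, and the level without it was 96.2 CPM (84.7 to 109). Of its 11 Csn2 UMIs 9 came from 1 cell, and without it the level was 0.76 CPM (0.09 to 2.76). For Wap 95 of 331 UMIs came from 1 cell. The Wap level without that cell was 89.6 CPM (78.5 to 101.7), under the 103 CPM of the Dll1- cells. Glycam1 stood at 59.5 CPM (50.6 to 69.5) in Dll1+ and 30.9 CPM (27.9 to 34.2) in Dll1- cells of S4. Without the cell with 138 UMIs the Dll1+ level was 7.90 CPM (4.89 to 12.1). In S2 all 7 members were lower by 2-fold or more, as were 1.84% of the genes tested, with 5.5% higher. Csn3 was at 2429 CPM (2363 to 2496) against 5310 CPM (5283 to 5336), and Lalba at 45.3 CPM (36.7 to 55.3), or 25.6 CPM without the cell with the most, against 140 CPM (136 to 144). There Csn2 and Csn1s2a had 2 UMIs each and Glycam1 1 UMI in the Dll1+ cells. The Csn2 ratio of S2, 96.8-fold, accordingly has an interval of 26.8 to 800.

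The median log2 ratio of the 7 members was -1.81 in S0, -1.66 in S2 and 0.03 in S4, beside medians over all genes tested of 0.14, 0.20 and 0.08. The S4 median rested on the cell with 138 Glycam1 UMIs: without it the median was -1.84, and 4 members, with Glycam1 (-1.84) among them, were lower by 2-fold or more. With S0, S2 and S4 weighted alike, which keeps 1599 Dll1+ and 8584 Dll1- cells, the median was -0.45 and 3 members stayed at least 2-fold lower: Csn2 (-5.79), Csn1s2a (-2.23) and Csn1s1 (-1.83). Without that same cell these became a median of -1.83 and 4 members, with Glycam1 at -2.45.

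**Figure D2:**
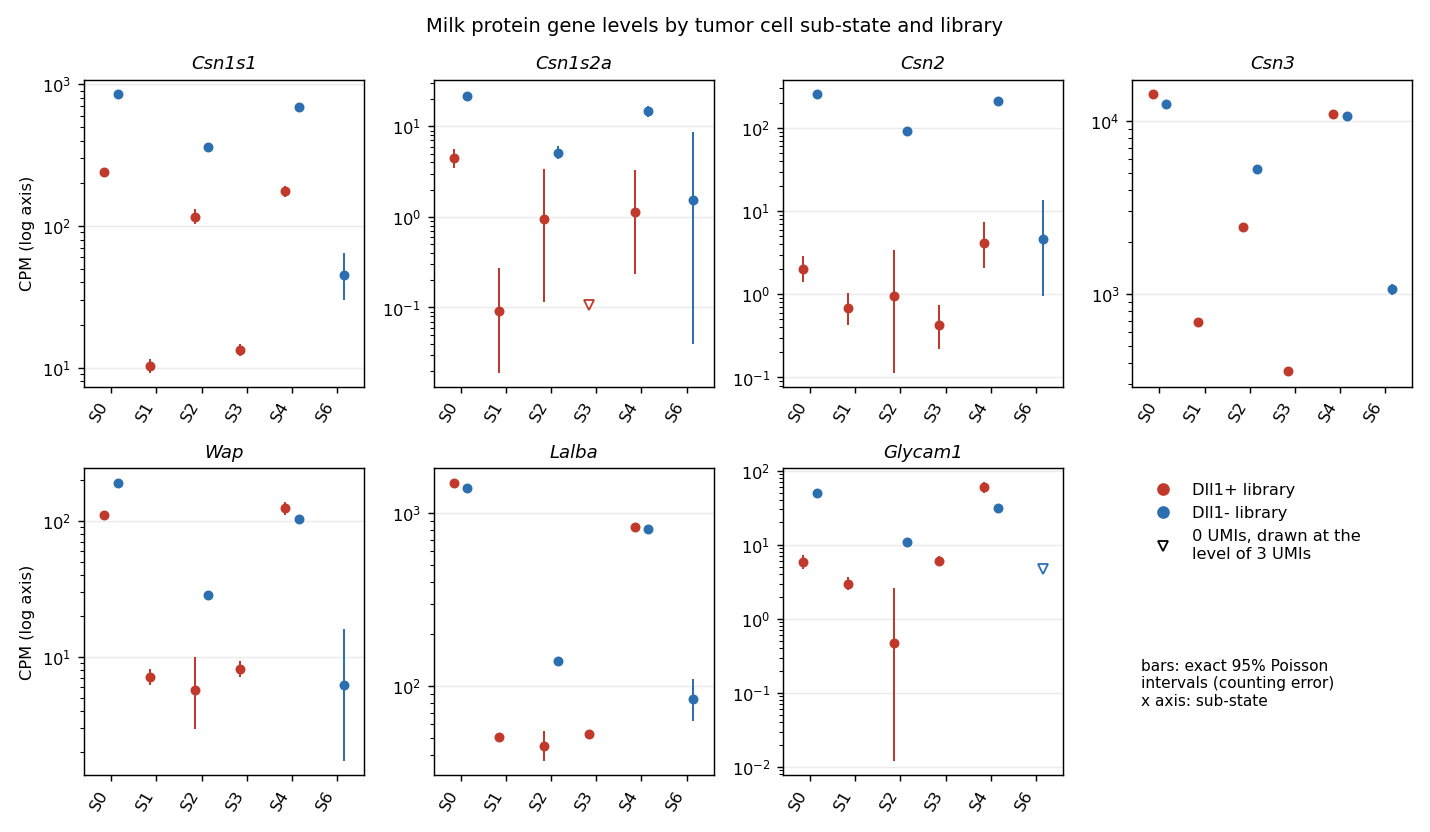
CPM of each milk protein gene (log axis) by tumor sub-state and library, with exact 95% Poisson intervals, for groups of at least 20 cells. In S0 and S4 the points of the 2 libraries lie close together for Csn3 and Lalba and apart for Csn1s1, Csn1s2a and Csn2, and the sub-states S1 and S3, held almost wholly by the Dll1+ library, are low for all members except Glycam1. The Glycam1 point of Dll1+ cells in S4 rests on 1 cell with 138 UMIs.

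Over single cells the members ranged from broad to rare. In the Dll1- library Csn3 was broad, with a median of 73 UMIs per tumor cell, at most 1258, and 6.45% of its UMIs in the 1% of cells that had the most. Lalba had 14.7%, Csn1s1 19.6% and Wap 24.9% of their UMIs in their top 1%. Csn2, Csn1s2a and Glycam1 were concentrated, with 69.9%, 71.0% and 69.7%. Csn2 reached 539 UMIs in a cell, while 417 of the 886 cells with a Csn2 UMI had only 1. In the Dll1+ library all 80 Csn2 UMIs came from 27 of 8041 cells, 14 of which had 1 UMI, and the highest had 10. There Csn3 had a median of 2 UMIs per cell, at most 1511, and 19.4% of its UMIs in the top 1% of cells, with 63.9% for Csn1s1, 35.7% for Lalba and 53.7% for Wap. Csn2 and Csn1s2a had 80 UMIs each there, no more than the 80 cells of the top 1%. Their shares are therefore 100% however the UMIs are spread. The plot of UMI shares gives the number of UMIs for each gene.

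**Figure D3:**
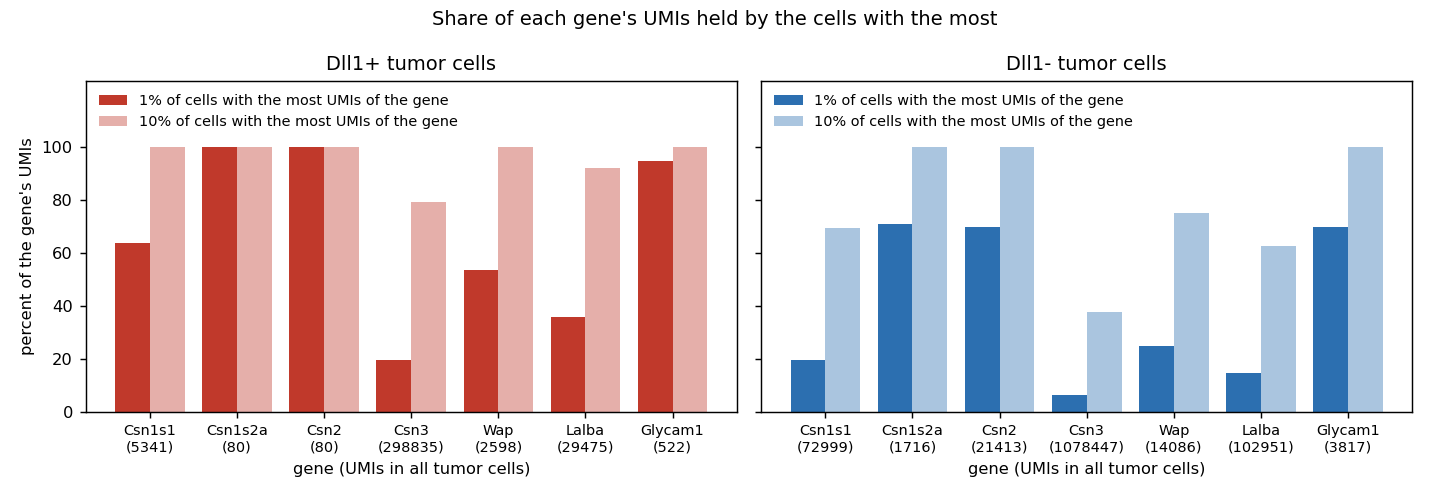
Percent of each gene's UMIs held by the 1% (dark) and the 10% (light) of tumor cells with the most UMIs of that gene, by library, with the gene's UMIs in brackets. In the Dll1- library the dark bars of Csn2, Csn1s2a and Glycam1 stand near 70% and that of Csn3 at 6.45%. In the Dll1+ library Csn2 and Csn1s2a have only 80 UMIs each, so their bars reach 100%.

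Cells with much Csn2 had more of the other caseins as well. In the Dll1- library 272 tumor cells had at least 10 Csn2 UMIs and held 94.1% of the Csn2 UMIs. Of these, 212 lay in S0, 36 in S2 and 24 in S4. Their Csn1s1 level was 3027 CPM, against 526 CPM in the 7788 cells with 0 Csn2 UMIs, and their Csn1s2a level 145 against 9.15 CPM. Glycam1 was at 177 against 25.9 CPM and Wap at 334 against 121 CPM. Csn3 and Lalba differed less than these: Csn3 was at 15160 against 9850.2 CPM and Lalba at 1359 against 936 CPM. The cells with at least 10 Csn2 UMIs were also deeper, with a median of 15222 UMIs against 10311. In the Dll1+ library 1 cell reached 10 Csn2 UMIs.

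At 1 depth of 2000 UMIs most Dll1+ tumor cells had 0 or 1 of the 7 genes and most Dll1- tumor cells had 1 to 3. None was found in 46.6% of the Dll1+ and 8.94% of the Dll1- tumor cells. At least 3 were found in 3.11% (2.73 to 3.53) and 26.1% (25.2 to 27.1), and at least 5 in 3 of 7451 and 160 of 8486 cells. All 7 were found in 3 Dll1- cells and in 0 Dll1+ cells, which had at most 5. In S0, 16.7% (14.6 to 18.9) of Dll1+ and 36.7% (35.3 to 38.02) of Dll1- cells had at least 3. Stromal cells gave 0 of 866 and 3 of 954 cells with at least 3.

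**Figure D4:**
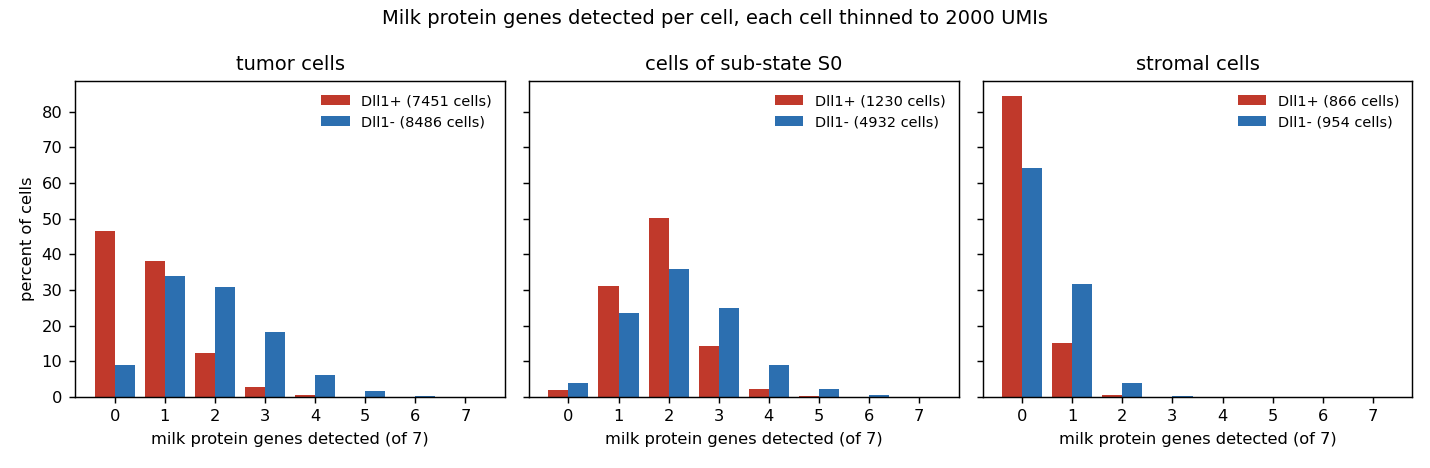
Percent of cells with 0 to 7 of the milk protein genes detected, each cell thinned to 2000 UMIs, for all tumor cells, sub-state S0 and stromal cells, by library. The Dll1- bars lie to the right of the Dll1+ bars among tumor cells, less so within S0, and 84.4% of Dll1+ and 64.2% of Dll1- stromal cells have 0.

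Detection of a member went with detection of the others in the same cell. In the Dll1- tumor cells each of the 42 ordered pairs had a higher share of cells with the second gene among cells with the first than among cells without it, with intervals apart in all 42. Csn1s1 was found in 75.4% (71.0 to 79.5) of the 415 cells with Csn2 and in 30.6% (29.6 to 31.6) of the others. Csn2 was found in 31.8% (23.99 to 40.5) of the 132 cells with Csn1s2a and in 4.47% (4.03 to 4.93) of the others. That pair had 6.51 times the cells expected from independent detection, beside a median of 1.70 over all pairs. Wap was found in 43.1% (36.1 to 50.4) of the cells with Glycam1 and in 12.4% (11.7 to 13.2) of the others. In the Dll1+ tumor cells 30 ordered pairs started from a gene with at least 30 cells, which leaves out Csn2 (8 cells) and Csn1s2a (14 cells). The share was higher in 28 of these 30, with intervals apart in 18. Lalba was found in 54.8% (48.3 to 61.2) of the Dll1+ cells with Wap and in 13.9% (13.1 to 14.8) of the others. Within S0 the intervals were apart in 40 of 42 pairs of the Dll1- and 4 of 24 of the Dll1+ cells. In value the share was higher in 42 of 42 and in 21 of 24. Among the 3 Dll1+ pairs that were lower, Lalba was found in 52.9% (45.5 to 60.3) of the S0 cells with Csn1s1 and in 58.4% (55.3 to 61.4) of those without. In stromal cells of the Dll1- library the intervals were apart in 3 of 18 pairs.

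**Figure D5:**
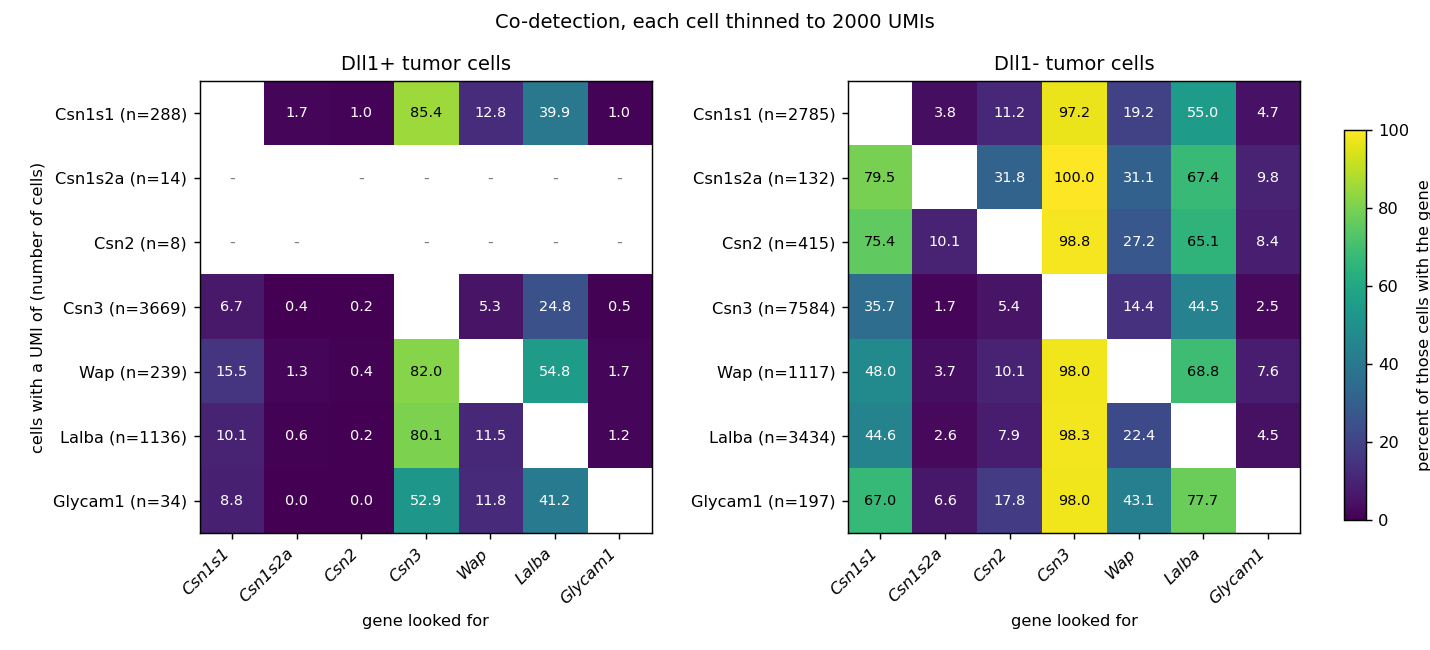
Percent of tumor cells with the gene of a column among the cells with a UMI of the gene of a row, each cell thinned to 2000 UMIs, by library, with the number of cells in brackets and dashes for genes with under 30 cells. In the Dll1- library 97.2 to 100% of the cells with another member also had Csn3, and Csn1s1 was found in 79.5% of the cells with Csn1s2a and 75.4% of those with Csn2.

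Over the thinned tumor cells, as a description, Csn3 and Lalba had the highest Pearson correlation of log counts (0.55 over 7451 Dll1+ and 0.47 over 8486 Dll1- cells). In the Dll1- cells Csn1s1 correlated with Csn3 at 0.31 and with Csn2 at 0.29, and Csn1s2a with Csn2 at 0.22. In the Dll1+ cells Csn1s1 and Csn2 correlated at 0.06, where Csn2 was nearly absent. These cells share their library and its free RNA.

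Cells with and without a Dll1 UMI were also compared at 2000 UMIs. In the Dll1+ library Csn3 was found in 43.1% (39.7 to 46.6) of the 809 tumor cells with a Dll1 UMI and in 49.98% (48.8 to 51.2) of the 6642 without, and Csn1s1 in 1.73% (0.95 to 2.89) and 4.13% (3.66 to 4.63). Within S1, where 573 of these cells lay, Csn3 was found in 42.6% (38.5 to 46.7) and 41.1% (39.5 to 42.8) and Csn1s1 in 1.05% (0.39 to 2.27) and 1.05% (0.74 to 1.45), with overlapping intervals. Wap was found in 1.48% (0.77 to 2.58) and 3.42% (2.99 to 3.88) of all Dll1+ tumor cells with and without a Dll1 UMI. Within S1 the Wap intervals overlapped (0.52%, 0.11 to 1.52, against 1.02%, 0.72 to 1.42). Lalba went the other way in S0, at 80.0% (65.4 to 90.4) of 45 against 56.7% (53.8 to 59.6) of 1185 Dll1+ cells. The Lalba intervals overlapped in S0 of the Dll1- library (70.8%, 55.9 to 83.0, against 56.9%, 55.5 to 58.3). They also overlapped in S1 of the Dll1+ library (7.50%, 5.48 to 9.98, against 5.69%, 4.95 to 6.51). Over all Dll1- tumor cells Lalba was found in 55.1% (42.6 to 67.1) of 69 against 40.3% (39.3 to 41.4) of 8417. Over all Dll1+ tumor cells the intervals overlapped (13.5%, 11.2 to 16.02, against 15.5%, 14.6 to 16.4).

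Genes of the pathway that switches on milk proteins are given next, by lists. Of 12 listed genes of prolactin and STAT5 signalling 11 were measured, of which 2 were at least 2-fold higher in the Dll1+ tumor cells, 0 lower and 9 between (median log2 ratio 0.18, beside 0.20 over all genes). The prolactin receptor gene Prlr was at 46.4 against 38.4 CPM, Stat5a at 10.9 and 16.3 CPM and Stat5b at 7.50 and 10.4 CPM. In S0 Prlr was at 52.8 and 46.3 CPM and Stat5a at 28.0 and 21.1 CPM. The higher genes were the feedback inhibitors Socs2, at 298 against 16.8 CPM (49.9 against 18.0 in S0), and Cish, at 23.7 against 7.09 CPM (16.5 against 8.29 in S0). Of 12 alveolar and luminal transcription factors 2 were higher, 0 lower and 10 between (median -0.21). Elf5 was at 208 against 262 CPM and, in S0, at 315 against 343 CPM. Hes1, a target of Notch, was at 175 against 58.0 CPM and Id2, an inhibitor of helix-loop-helix factors, at 240.02 against 91.7 CPM. Within S0 both were less than 2-fold apart, Hes1 at 79.2 against 64.2 CPM and Id2 at 193 against 115 CPM. Stromal cells held Hes1 at 152 and 141 CPM.

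Of 14 genes of other secreted proteins of milk, 5 were higher by 2-fold or more, 0 lower and 9 between (median 0.32). The butyrophilin gene Btn1a1, whose protein coats milk fat globules, was at 71.9 against 6.05 CPM. Pigr, which carries immunoglobulin into secretions, was at 124.6 against 23.3 CPM, Wfdc2 at 213 against 56.9 CPM and the transferrin gene Trf at 1794 against 742 CPM. The osteopontin gene Spp1 was at 151 against 49.0 CPM, with 262 and 124.5 CPM in stromal cells. Within S0 Btn1a1, a leading gene of S1, was at 16.1 against 8.97 CPM, less than 2-fold apart. Pigr (120 against 33.1), Wfdc2 (54.6 against 24.7), Trf (2726 against 971) and Spp1 (445 against 32.1) stayed at least 2-fold higher there. Of the lactose list, 8 genes, the hexokinase genes Hk1 (113 against 43.4 CPM) and Hk2 (31.1 against 82.6 CPM) lay on opposite sides, Galt was higher (22.5 against 10.7 CPM) and 5 lay between. Within S0 Hk1 (57.5 against 40.9 CPM), Hk2 (59.1 against 77.2 CPM) and Galt (14.8 against 12.0 CPM) were each less than 2-fold apart. B4galt1, the partner of alpha-lactalbumin in lactose synthase, was at 35.4 and 52.6 CPM, a value chosen for its role after it was seen. The list of casein processing and of calcium and zinc transport had 2 of 8 higher, 2 lower and 4 between. Sparc, at 35.4 against 6.05 CPM, stood at 9894 and 7264 CPM in stromal cells. The other 3 stayed under 20 CPM in both libraries and are named although outside the naming rule: Slc34a2 (12.4 against 3.28 CPM) was higher, and the casein kinase gene Fam20c (5.98 against 19.8 CPM) and the zinc transporter gene Slc30a2 (3.70 against 10.4 CPM) were lower. Over all 5 lists 13 genes were higher and 3 lower by 2-fold or more, and 12 and 8 with TMM factors.

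The genes whose level over cells was most like the summed members differed between the libraries, with 3 in both lists of 10. These were Lrg1 (r = 0.59 over 8041 Dll1+ and 0.54 over 8674 Dll1- cells, Pearson, log counts per 10000), Xbp1 (0.57 and 0.49), a transcription factor of secretory cells, and Folr1 (0.51 and 0.51), a folate receptor. In the Dll1+ cells the highest were Clca3a2 (0.65, and 0.43 in the Dll1- cells) and Lgals7 (0.61, and -0.06), followed further down by Crabp2 (0.54), Tmem223 (0.51), Stat3 (0.48), Prtn3 (0.48) and Gata3 (0.47). In the Dll1- cells they were Ucp2 (0.59, and 0.42 in the Dll1+ cells) and Dbi (0.57, and 0.25), followed by Elf5 (0.51), Trf (0.49), Itm2b (0.47), Atp5g1 (0.45) and Emid1 (0.44). Since Csn3 made up over 80% of the summed counts, these lists are close to those of Csn3 alone. For Wap the most like gene in the Dll1- cells was Thrsp (r = 0.43), a regulator of lipid synthesis, and for Csn1s1 Igfbp5 (0.32) and Elf5 (0.30). The members themselves and genes under 20 CPM were left out of this search, in which no gene reached 0.2 with Csn2, Csn1s2a or Glycam1 in either library.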

How the data were processed

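The deposited values are raw UMI counts per gene and barcode. Per the file headers they came from Cell Ranger 4.0.0, and the submitters' processing notes name mm10. Neither the annotation release nor the settings are known from these sources. Of 32285 gene IDs 32235 were found in GENCODE M21. The libraries held 117230907 (Dll1+) and 135960457 (Dll1-) UMIs over 13819 and 13097 barcodes, each of at least 500 UMIs.

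Barcodes needed at least 1000 UMIs, 500 genes and at most 20% mitochondrial UMIs. The automatic threshold of scrublet (in scanpy 1.11.5) marked 0 barcodes, so the highest scores were removed at 0.8% per 1000 barcodes (896 and 989), which left 9685 and 10132 cells with medians of 7883 and 9918.5 UMIs and 5.38% and 3.54% mitochondrial UMIs. Both libraries were clustered together without integration (2000 variable genes, 30 components, 15 neighbours, leidenalg 0.10.2, resolution 0.6, and 0.4 for sub-states, the latter without the 7 members). A class needed at least 3 markers, and 50% of its list, in at least 20% of a cluster's cells. Epithelial-like sub-states with at least 2 leading markers of another class or of low depth (198 and 83 cells) were moved out of the tumor cells, a rule set after the data were seen, and 158 Dll1+ cells stayed unnamed.

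UMIs were summed per class and library as CPM. Intervals are exact Poisson (CPM), Clopper-Pearson (shares) and conditional binomial (ratios). A fold is the plain ratio of CPM, while counts of genes at least 2-fold apart use log2 of CPM plus 1 and genes with at least 30 UMIs. Calculations used numpy 2.4.6, scipy 1.17.1, pandas 2.3.3 and, for TMM factors, edgeR 4.0.16, and were tested on simulated data. The members and the pathway and marker lists were chosen with earlier results of these data known. Named genes are all members, list genes at least 2-fold apart that reach 20 CPM in a library, Prlr, Stat5a, Stat5b and Elf5, and, per library, the 10 genes most correlated with the summed members (at least 20 CPM, r of at least 0.2).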

Additional observations from a re-analysis of the deposited data

How the results depend on the processing

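No paired analysis was possible because each group had 1 library. Every member stayed lower in the Dll1+ tumor cells under all 16 alternatives, except Lalba, which was level (log2 ratio 0.0052, and 0.0011 without the Dll1+ cell with 138 Glycam1 UMIs) when the 3 sub-states of both libraries had equal weight. Csn3 was near level at that weight too, with log2 ratios of -0.035 and -0.041. The median log2 ratio of the members, -2.33 as reported, was -1.49 with a pseudocount of 10 CPM, -2.68 with at most 10% mitochondrial UMIs and -2.65 without the cells above the 99th percentile of each gene. It was -2.99 with the stromal level subtracted, which is the ratio of Glycam1, whose Dll1+ stromal UMIs came mostly from endothelial-like cells. At equal weight of those sub-states the median was -0.45. That -0.45 is the ratio of Glycam1 and rested on that cell: without it the median was -1.83 at equal weight and -2.70 over all tumor cells, settings chosen after seeing the data. The count of members at least 2-fold lower, 7 as reported, was 3 at equal weight and 4 at equal weight without the cell. It was 5 without S3, which has 1 leading fibroblast marker, an alternative also chosen after seeing the data, and 7 under the other 13. In the sub-state with the most Dll1- cells, Csn3 and Lalba turned to -0.0030 and -0.48 at a resolution of 0.8, and the cause was not tested. At least 3 members were found in 7.31% of the Dll1+ and 42.0% of the Dll1- cells thinned to 5000 UMIs, and at least 2 UMIs of 3 members in 5.02% and 36.4% of the unthinned cells. With a 1.5-fold limit 910 genes were lower and 3141 higher in the Dll1+ tumor cells, and 569 were at least 2-fold lower with TMM factors. Of the pathway list genes 9 were at least 1.5-fold lower and 8 at least 2-fold lower with TMM factors, against 3 as reported. Depth limits what Csn2 and Csn1s2a show in the Dll1+ cells, with 80 UMIs each.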

Other observations

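The 12 genes of the files that lie within 100 kb of the casein genes on chromosome 5 include 8 that are not among the 7 described above, and all were low in the tumor cells. The casein gene Csn1s2b was at 1.72 CPM (140 UMIs) in the Dll1+ and 2.71 CPM (286 UMIs) in the Dll1- cells, a 1.58-fold (1.29 to 1.95) difference that was far smaller than that of its neighbour Csn1s2a. Prr27, next to it, was at 0.43 CPM (35 UMIs) against 3.45 CPM (364 UMIs), 8.04-fold (5.67 to 11.7) higher in the Dll1- cells, and Odam, which lies before Csn3, was at 0.10 CPM (8 UMIs) against 0.45 CPM (47 UMIs), 4.54-fold (2.13 to 11.1). Before Csn1s1, the sulfotransferase genes Sult1e1 (16 and 65 UMIs) and Sult1d1 (73 and 173 UMIs) were 3.14-fold (1.80 to 5.81) and 1.83-fold (1.39 to 2.44) higher in the Dll1- cells. Beyond Csn3 the order was the other way for Smr3a, with 99 UMIs in the Dll1+ and 7 in the Dll1- cells. Cabs1 had 1 UMI in each library and 2310003L06Rik had 0 in both. These genes were chosen by position alone, and no cause was tested.

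Barcodes under the minimum of 1000 UMIs held milk protein transcripts in both libraries: Csn3 was at 706 CPM over 1471 barcodes of the Dll1+ and 1996 CPM over 1169 barcodes of the Dll1- library, and Lalba at 109.98 and 345 CPM. Csn2 had 0 and 23 UMIs there.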
